A study of Mus musculus with 8 samples.

Results

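The acetylcholine receptor and neuromuscular junction genes described here were Chrna1, Chrnb1, Chrnd, Chrne and Chrng, which encode the subunits of the muscle nicotinic receptor, together with Musk, Lrp4, Dok7, Rapsn and Ache. They were chosen by symbol, from a list of known junction genes, and all 10 were found among the 55487 genes of the deposited values. The samples were skeletal muscle from 8 male C57BL/6J mice aged 10 weeks, all of 1 group. Both hindlimbs were immobilized with casts for 8 days, and K14Q MOTS-c was injected intraperitoneally 2 times a day, to a dose of 15 mg/kg/day. MOTS-c is a small peptide encoded in mitochondrial DNA, and K14Q is a naturally occurring variant of it with glutamine in place of lysine. The sample labels name vastus lateralis muscle, whereas the design text and the methods name gastrocnemius, so the muscle is left as hindlimb muscle here. Mice without a cast, mice without peptide and mice given the unmodified peptide were not analysed here, so every comparison below is between genes or between mice that had the same treatment.

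At the neuromuscular junction, acetylcholine released by the motor nerve opens a cation channel built from alpha, beta and delta subunits with either a gamma subunit, in fetal and denervated muscle, or an epsilon subunit, in adult muscle. Nerve-derived agrin binds LRP4, which activates the receptor tyrosine kinase MuSK with the help of the adaptor Dok-7, and rapsyn then anchors the receptors in clusters beneath the nerve ending. Acetylcholinesterase, held in the synaptic cleft, ends the signal by cleaving acetylcholine. In active muscle most receptor transcription is restricted to nuclei under the nerve, and loss of electrical activity is known to raise it along the whole fibre.

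The files held deposited signal, that is read counts divided by 1 size factor per library, called normalized counts here. Between 23985356 and 33012497 reads were counted per mouse, and 15135 genes reached the minimum of 10 counts in all 8 libraries. The defining markers of the labelled tissue (Acta1, Ckm, Mylpf, Tnnt3, Myh4 and Myh1) were all detected, and their summed normalized counts were lowest in mice 3 and 4 (1609030 and 1787050) and ran from 2330890 to 3253080 in the other mice. Of the 7 neuron markers, Chat and Slc18a3, which define motor neurons, were at 0 counts in every library, which allows up to 3 counts per library. The other 5 neuron markers had some counts, and Stmn2 alone of them passed the count minimum, with 34.2 to 53.2 normalized counts. The summed neuron markers ran from 35.2 normalized counts in mouse 4 to 54.8 in mouse 3. Because whole muscle was used, a smaller number of junctional nuclei and less RNA per nucleus cannot be told apart. The labels give each library as a separate replicate and the design text gives 8 mice, and the tests below take the mouse as the unit.

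The sequences upstream of the genes are shown first, since the activity and nerve dependence of this family is known to act through short promoter elements. The E-box CANNTG is bound by myogenic factors such as myogenin and MyoD, and the N-box CCGGAA is bound by the ETS factor GABP at synaptic nuclei. The 250 bases before the RefSeq start (GRCm38.p6) are given 5′ to 3′ for the fetal and adult alternative subunits, the alpha subunit and Musk, with both motifs, searched on both strands, in capitals.
Chrna1 promoter, chr2:73580339-73580588, minus strand: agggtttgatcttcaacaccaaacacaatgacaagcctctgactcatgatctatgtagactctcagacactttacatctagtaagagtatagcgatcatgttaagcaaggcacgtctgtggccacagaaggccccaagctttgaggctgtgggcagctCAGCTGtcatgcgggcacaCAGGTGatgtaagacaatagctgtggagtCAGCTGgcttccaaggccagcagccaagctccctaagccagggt
Chrne promoter, chr11:70619195-70619444, minus strand: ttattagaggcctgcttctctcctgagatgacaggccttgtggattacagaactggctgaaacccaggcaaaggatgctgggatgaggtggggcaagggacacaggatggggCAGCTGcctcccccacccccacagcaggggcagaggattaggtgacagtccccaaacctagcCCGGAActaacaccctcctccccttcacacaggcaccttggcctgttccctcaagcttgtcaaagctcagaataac
Chrng promoter, chr1:87205561-87205810, plus strand: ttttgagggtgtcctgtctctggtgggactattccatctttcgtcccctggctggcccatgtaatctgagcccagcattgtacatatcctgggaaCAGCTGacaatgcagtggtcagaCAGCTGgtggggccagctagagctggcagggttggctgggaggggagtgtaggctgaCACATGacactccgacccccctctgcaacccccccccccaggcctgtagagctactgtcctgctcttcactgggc
Musk promoter, chr4:58285712-58285961, plus strand: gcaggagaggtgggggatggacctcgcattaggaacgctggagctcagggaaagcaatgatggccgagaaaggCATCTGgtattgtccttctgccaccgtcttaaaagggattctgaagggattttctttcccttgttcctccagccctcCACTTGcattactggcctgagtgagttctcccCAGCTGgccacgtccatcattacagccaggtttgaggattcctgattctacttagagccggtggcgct
The GENCODE M21 annotation has no exon in the Chrna1 window, 22 exonic bases at the end of the Chrne window, 1 in the Chrng window and 2 in the Musk window, and the Chrng window lies within an intron of a longer annotated Chrng transcript. RefSeq upstream sequence was held for 7 of the 10 genes, all except Chrnd, Lrp4 and Rapsn.

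An E-box was present upstream of all 7 genes, against 66.2% of 32851 windows of the same length from all promoters. The form CAGCTG, which is a subset of the E-box matches, was found in Chrna1, Chrne, Chrng and Musk and in 13.0% of all windows. Chrna1 and Chrng each held it at 2 positions, as did 1.26% of all windows. The N-box was found in Chrne alone of the 7, 76 bases before the start, and in 12.03% of all windows. These are matches of letters and not measured binding sites. Dok7 had 2 annotated starts, and the window of the inner start held no match.

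**Figure D1:**
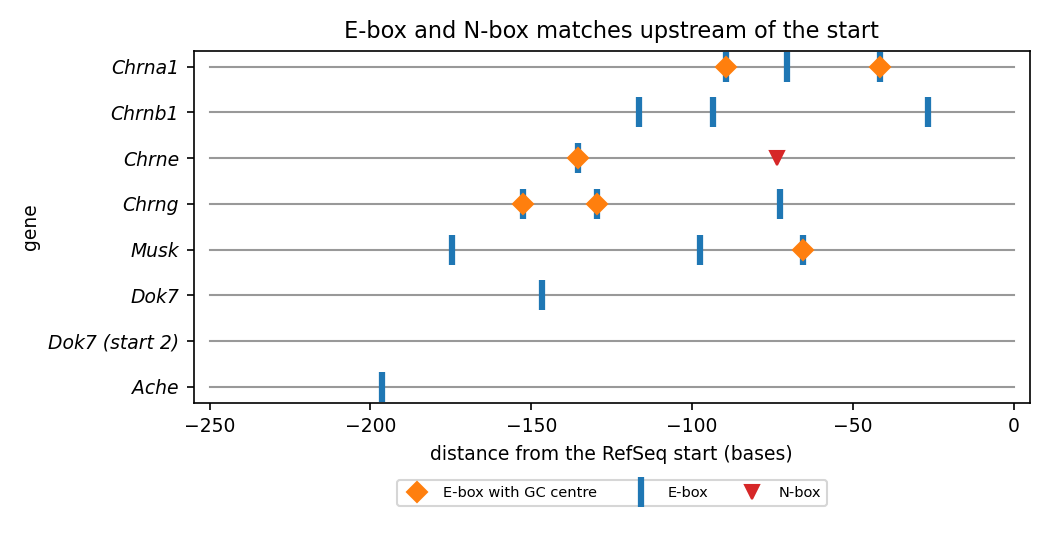
Positions of E-box (CANNTG, blue bars), CAGCTG (orange diamonds) and N-box (CCGGAA, red triangle) matches in the 250 bases before each RefSeq start of 7 junction genes; the horizontal axis is the distance from the start in bases and each row is 1 start. CAGCTG lies in 4 genes and the N-box in Chrne alone.

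Among the receptor subunits, Chrnb1 was the most abundant and Chrng had at most 11 counts in a library. Chrnb1, the beta subunit gene (ENSMUSG00000041189; chromosome 11, 69784036 to 69795943), had between 1306 and 2210 normalized counts with a median of 1696. The lowest values were those of mice 5 and 1 (1306 and 1332), and mouse 8 had the highest. Its mean was 1663 ± 295 (SD, n = 8), a coefficient of variation (CV, the SD over the mean) of 17.7%, the smallest of the 5 subunits.

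Chrna1, which encodes the alpha subunit that carries most of the acetylcholine binding site (ENSMUSG00000027107; chromosome 2, 73563215 to 73580338), ranged from 866 to 1886 normalized counts with a median of 1099 and a mean of 1198 ± 380 (SD, n = 8). Mice 1, 2, 3 and 5 lay close together at 906, 877, 868 and 866, and mice 6, 7, 8 and 4 were higher, at 1293, 1436, 1453 and 1886. The CV was 31.7%, against 2.92% from counting alone, and 25.5% without mouse 4.

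Chrnd, the delta subunit gene (ENSMUSG00000026251; chromosome 1, 87190607 to 87200070), was much lower, at 65.1 to 170 normalized counts, with a median of 90.2 and a mean of 100.4 ± 35.8 (SD, n = 8). Mouse 4 was again the highest, followed by mouse 6 at 126, and mice 5 and 2 were the lowest at 65.1 and 68.1. The CV of 35.7% fell to 26.3% without mouse 4.

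Chrne, the adult epsilon subunit gene (ENSMUSG00000014609; chromosome 11, 70614883 to 70619216), ranged from 162 in mouse 5 to 301 in mouse 8, with a median of 248 and a mean of 233 ± 49.0 (SD, n = 8). Mouse 4, the highest for Chrna1 and Chrnd, had 173, which was next to the lowest. The level of Chrne relative to Chrnd, each per kilobase of exon, accordingly ranged from 1.97 in mouse 4 to 7.23 in mouse 8, with a mean of 5.03 ± 1.87 (SD, n = 8), and was above 1 in 8 of 8 mice.

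Chrng, the fetal gamma subunit gene (ENSMUSG00000026253; chromosome 1, 87204657 to 87212694), begins 4586 bases after the end of Chrnd on the same strand. It had 3 to 11 counts per library, 51 in all, and from 2.49 normalized counts, in mouse 3 to 10.995 in mouse 4, with a median of 5.51. Mouse 6 was close to mouse 4, at 10.8. Counting alone gives a CV of 39.4% at this depth against the observed 48.5%, so the order of the mice for Chrng is not resolved at this depth. Chrng was the only member below 10 counts in any library, and it was therefore left out of the relations between genes below.

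The share of the fetal subunit was small in every mouse. With both genes per kilobase of exon, Chrng made up 0.493% to 2.52% of Chrng plus Chrne, with a median of 0.990% and a mean of 1.18% ± 0.679 (SD, n = 8). Chrng was below Chrne in 8 of 8 mice, with a log2 difference of -6.58 ± 0.80 (SD, n = 8; exact sign-flip permutation test, two-sided, p = 0.0078, the smallest that 8 mice allow). The difference was larger than its spread between mice.

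Differences in this share between the mice rested on few Chrng counts and were not tested. Mouse 4 had the highest share, 2.52% with a 95% Wilson interval of 1.36% to 4.62%, from 10 Chrng and 157 Chrne counts. Mouse 3 had the lowest, 0.493% with an interval of 0.167% to 1.44%, from 3 and 246 counts. These intervals overlapped, which does not settle whether the shares of these mice differed. Over all 8 libraries, 51 Chrng and 1828 Chrne counts gave a share of counts, without length, of 2.71% (2.07% to 3.55%). The intervals cover counting error only, since reads without molecular identifiers are not independent molecules.

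**Figure D2:**
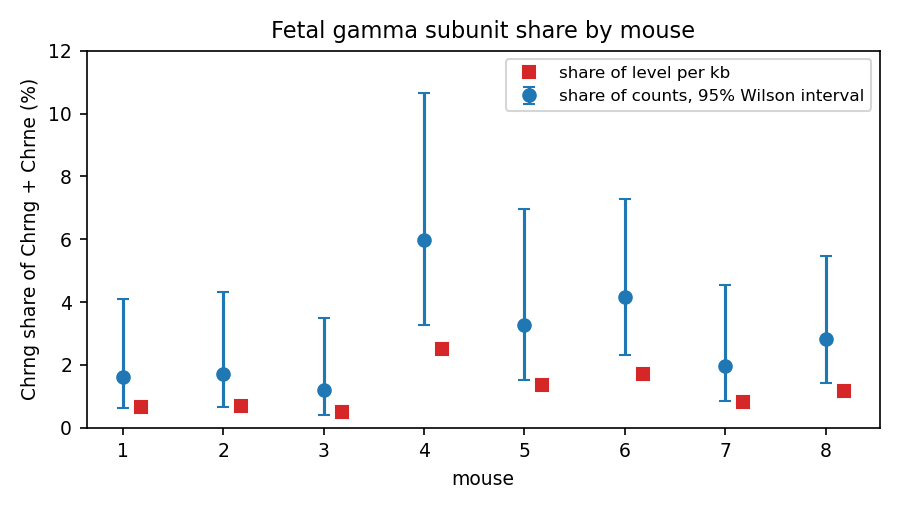
Share of Chrng in Chrng plus Chrne for each of the 8 mice, in percent. Blue circles are shares of read counts with 95% Wilson intervals, which cover counting error, and red squares are shares of the level per kilobase of exon; the latter run from 0.493% in mouse 3 to 2.52% in mouse 4.

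Of the genes that organise the postsynaptic membrane, Musk and Rapsn were, per kilobase of exon, at the level of the abundant subunits, whereas Lrp4 and Dok7 were low. Musk, the kinase gene (ENSMUSG00000057280; chromosome 4, 58285960 to 58374303), ranged from 990 to 2302 normalized counts, with a median of 1356 and a mean of 1492 ± 409 (SD, n = 8). Mouse 4 was the highest, with mouse 2 next at 1737, and mouse 8 was the lowest. Without mouse 4 the CV fell from 27.4% to 19.2%.

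Lrp4, the agrin receptor gene (ENSMUSG00000027253; chromosome 2, 91457511 to 91513779), ranged from 124 to 214 normalized counts, with a median of 175 and a mean of 175 ± 31.7 (SD, n = 8). It was lowest in mice 8 and 7 (124 and 139) and highest in mouse 1. Fibroblast markers (Pdgfra, Dcn, Lum and Col1a1, all 4 detected) were also lowest in summed normalized counts in mice 7 and 8 (9473 and 9553), and ran from 10804 to 17618 in the other mice. Most of this sum was Dcn. Pdgfra was lowest in mice 8 and 7 and Dcn in mouse 7, whereas Lum was lowest in mouse 5 (171, against 385 in mouse 7) and Col1a1 in mouse 3 (497, against 1733 in mouse 7). Their part in the spread of Lrp4 was not tested.

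Dok7, whose product binds and activates MuSK from inside the fibre (ENSMUSG00000044716; chromosome 5, 35056766 to 35087839), ranged from 86.9 in mouse 4 to 217 in mouse 5, with a median of 130.0 and a mean of 139 ± 44.7 (SD, n = 8). Musk and Dok7 were therefore at opposite ends in mouse 4, where the ratio of their levels per kilobase was 30.01, against 6.16 in mouse 5. The mean ratio was 13.9 ± 7.78 (SD, n = 8).

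Rapsn, the gene of the receptor anchor (ENSMUSG00000002104; chromosome 2, 91035620 to 91045729), varied the least of the 10 genes. It ranged from 398 in mouse 1 to 599 in mouse 4, with a median of 496, a mean of 499 ± 65.9 (SD, n = 8) and a CV of 13.2%.

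Ache, the acetylcholinesterase gene (ENSMUSG00000023328; chromosome 5, 137287519 to 137294466), ranged from 208 in mouse 4 to 504 in mouse 7, with a median of 312 and a mean of 330 ± 86.5 (SD, n = 8). The next mouse was at 367, and without mouse 7 the CV fell from 26.2% to 17.8%. Schwann cell markers were also highest in mouse 7, where the 8 genes summed to 5307 normalized counts against 2329 to 3244 in the other mice, with 5 of the 8 genes at their highest there. Their part in the Ache value was not tested. A noncoding gene on the opposite strand, Gm42456, shares 98 exonic bases with Ache (2.12% of its exonic length) and had a mean of 1.11 normalized counts, and whether the counting used strand is not given in the sources used here.

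Set side by side per kilobase of exon, the levels spanned from 657 ± 117 for Chrnb1 to 1.58 ± 0.766 for Chrng (SD, n = 8). The order was Chrnb1, Musk (395 ± 108), Rapsn (277 ± 36.6), Chrna1 (273 ± 86.7), Chrne (138 ± 29.0), Ache (71.5 ± 18.7), Dok7 (32.6 ± 10.5), Chrnd (30.5 ± 10.9), Lrp4 (16.7 ± 3.01) and Chrng. In 7 of the 9 neighbouring pairs, the first gene was above the next by more than the spread between mice. For 6 of the 7 the higher gene was higher in 8 of 8 mice (exact sign-flip permutation test, two-sided, p = 0.0078, and 0.012 after Benjamini-Hochberg adjustment over the 9 pairs). Musk was above Rapsn in 7 of 8 mice, by 0.48 ± 0.33 on the log2 scale (exact p = 0.016, adjusted 0.020).

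Neighbours that did not differ beyond their spread were Rapsn and Chrna1, with a log2 difference of 0.07 ± 0.37 (SD, n = 8; exact permutation p = 0.60, higher in 4 of 8 mice), and Dok7 and Chrnd, with 0.11 ± 0.84 (exact permutation p = 0.71, 5 of 8 mice). This order depends in part on the exonic length used. With the longest coding transcript in place of all exonic bases, Ache came before Chrne without a difference between them (exact permutation p = 0.65, 4 of 8 mice), Chrnd did not pass against Lrp4 (exact permutation p = 0.0625, 5 of 8 mice), and 5 of 9 neighbouring pairs passed. Without mouse 2, 3 or 5, Chrna1 came before Rapsn and Musk did not pass against Chrna1 (exact permutation p = 0.0625).

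**Figure D3:**
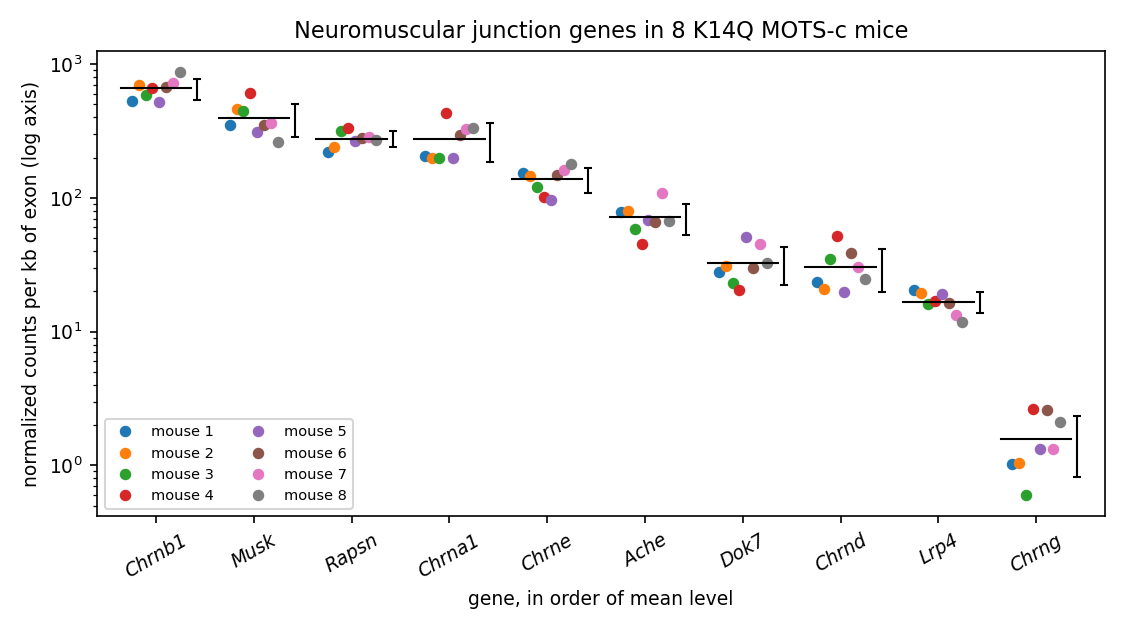
Level of each of the 10 genes in normalized counts per kilobase of exon on a log axis, 1 point per mouse, coloured by mouse; horizontal lines are means and the bars beside them are 1 SD (n = 8). The means run from 657 for Chrnb1 to 1.58 for Chrng, and the points of Rapsn and Chrna1, and of Dok7 and Chrnd, overlap.

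The subunits were also compared as ratios within each mouse. Per kilobase, Chrna1 was 0.415 ± 0.107 times Chrnb1 and 9.28 ± 2.31 times Chrnd (SD, n = 8), below 1 in 8 of 8 mice for the former and above 1 in 8 of 8 for the latter. Relative to Chrne, Chrna1 was 2.06 ± 0.912 times as high, with a range from 1.36 in mouse 1 to 4.21 in mouse 4. Mouse 4 thus combined high Chrna1 and Chrnd with low Chrne.

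The spread between mice was above that of the median gene for most members. The median CV of the 10 genes was 26.8%, and that of the 15135 genes past the count minimum was 15.6%. Of the 9 members among these genes, 8 were above this median, all except Rapsn. Mouse 4 was the highest for Chrna1, Chrnd, Musk and Rapsn and the lowest for Dok7 and Ache. Mouse 5 was the lowest for 4 subunits (Chrna1, Chrnb1, Chrnd and Chrne) and the highest for Dok7. Mouse 8 was the highest for Chrnb1 and Chrne and the lowest for Musk and Lrp4. Without mouse 4 the median CV of the 10 genes was 20.8%.

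**Figure D4:**
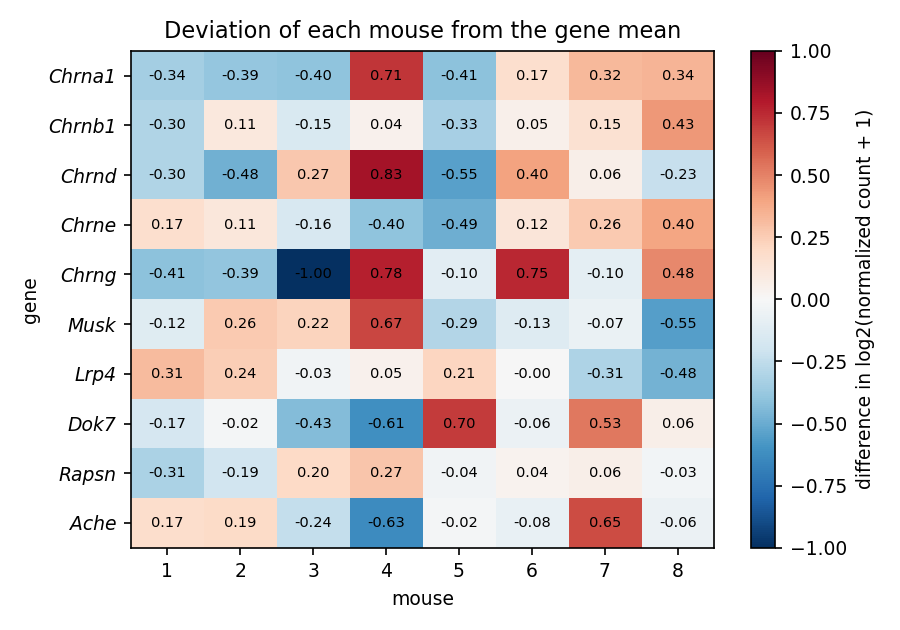
Difference of each mouse from the gene's mean in log2(normalized count + 1), for the 10 genes (rows) and 8 mice (columns), with red above and blue below the mean. Mouse 4 is high for Chrna1 (0.71), Chrnd (0.83) and Musk (0.67) and low for Dok7 (-0.61) and Ache (-0.63).

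Whether the genes rose and fell together between mice was measured by Pearson's r of log2(normalized count + 1) over the 8 mice, with an exact permutation p (two-sided) over all pairings. Each of the 9 members that passed the count minimum was set against every other gene, 136206 relations in all. No relation had an adjusted p under 0.05, which is 0% of all relations, and the smallest adjusted p was 0.130. With 8 mice the smallest possible p was 2.5e-05. At least 68 relations would have had to reach it, or more a slightly larger p, for any to pass. The count of 0 therefore says little of any single relation. Unadjusted, 10.4% of all relations had p under 0.05, whereas 2 of the 36 pairs of members did, or 5.56%. By member, this unadjusted share over all genes was lowest for Chrna1 (3.63%), at 6.75% for Musk, 6.9% for Chrnd, 7.5% for Dok7, 10.5% for Chrnb1, 11% for Ache and 11.6% for Rapsn, and highest for Chrne (16.2%) and Lrp4 (19%). The pairs of members were 16 positive and 20 negative, with a median r of -0.13, against -0.003 for all relations. A shared direction across the set was not detectable with 8 mice.

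Chrnd and Rapsn gave r = 0.80 (exact permutation p = 0.018, adjusted 0.381), with Spearman's rho at 0.83 (p = 0.015 by the same exact test), and r was 0.72 without mice 4 and 6. Both genes were highest in mouse 4 and were low in mice 1 and 2, and the muscle fibre markers given above were low in mice 3 and 4. Their part in this relation was not tested. Chrnb1 and Lrp4 gave r = -0.79 (exact permutation p = 0.020, adjusted 0.390), with rho at -0.64 (p = 0.096 by the same exact test), and r was -0.54 without mice 5 and 8. Dok7 and Ache, both lowest in mouse 4, gave r = 0.69 (exact permutation p = 0.056, adjusted 0.494), with rho at 0.67 (p = 0.083 by the same exact test), and r was 0.86 without mice 4 and 5. None of the 3 relations passed the adjustment.

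Other genes of the pathway were taken from lists of known genes. The relations given for them below were picked as a member's strongest with any listed gene, so their unadjusted p-values are smaller than those of an unpicked relation. Of the 18 genes of the postsynaptic apparatus, all 18 passed the count minimum. An unadjusted p under 0.05 was found in 22 of their 162 relations with members (13.6%), against 10.4% of all relations, and none passed the adjustment. Lama4, which encodes a laminin of the synaptic basal lamina and of blood vessels, went with Lrp4 (r = 0.97, exact permutation p = 0.00025, adjusted 0.173; rho was 0.95 with p = 0.0011 in the same test). Its normalized counts were 208 and 240 in mice 8 and 7 and 334 to 547 in the other mice, so the same mice were lowest for both genes, and without them r was 0.86. Relations of similar size with Lrp4 were found for Sntb2 (0.95), Lamb2 (0.95), Utrn (0.92) and Colq (-0.92) of the same list. Nes, which encodes nestin, an intermediate filament protein found at the junction, went with Dok7 (r = 0.89, exact permutation p = 0.0030, adjusted 0.266; rho was 0.79 with p = 0.028 in the same test; r fell to 0.70 without mice 4 and 5).

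Of the 8 genes of the neuregulin and ETS pathway, which links nerve-derived neuregulin to synaptic transcription, 6 passed the count minimum. Nrg1 (0 to 6.60 normalized counts) and Erbb4 (3.32 to 20.2) did not pass. Unadjusted p was under 0.05 in 7 of 54 relations (13.0%), against 10.4% of all relations, and none passed the adjustment. Erbb3, a neuregulin receptor gene expressed in Schwann cells and muscle, ran against Ache (r = -0.95, exact permutation p = 0.00015, adjusted 0.172; rho was -0.90 with p = 0.0046 in the same test; r was -0.90 without mice 4 and 7). Erbb3 was lowest in mouse 7 (98.2) and highest in mouse 4 (157), the reverse of Ache.

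**Figure D5:**
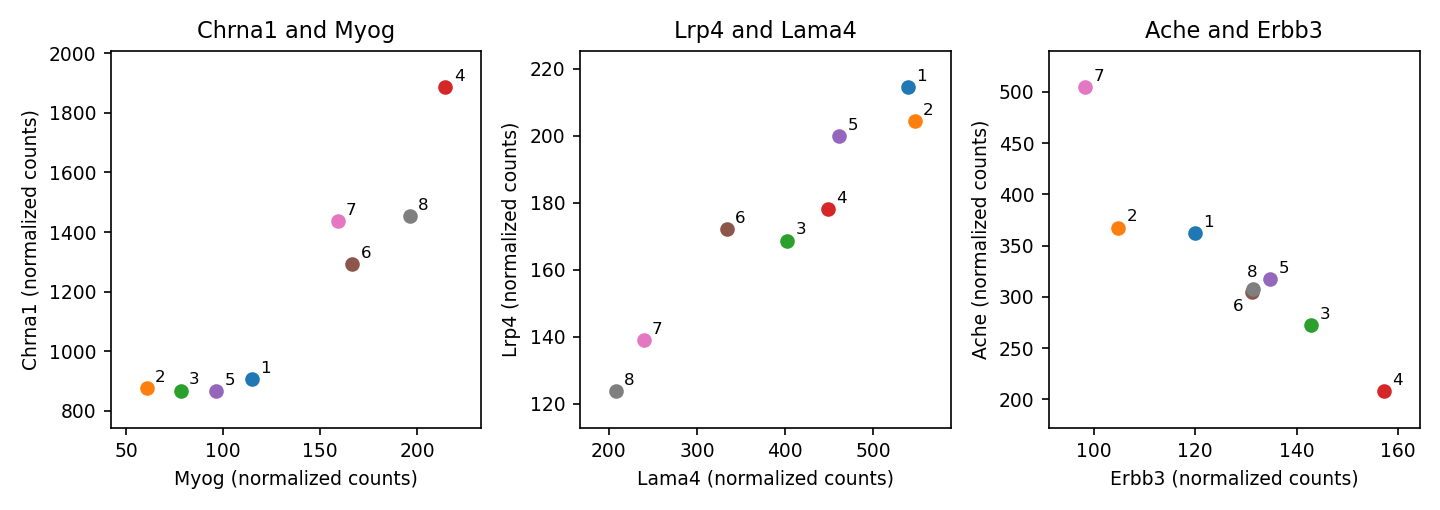
Normalized counts of Chrna1 against Myog, Lrp4 against Lama4 and Ache against Erbb3, 1 point per mouse, numbered by mouse. Mice 7 and 8 are lowest for both Lrp4 and Lama4, and mouse 4 is lowest for Ache and highest for Erbb3, and the 4 mice with the most Myog have the most Chrna1.

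The activity-dependent regulators and extrasynaptic genes were taken as genes whose transcription is known to respond to denervation or inactivity, in either direction. All 10 passed the count minimum, and 15 of 90 relations (16.7%) had an unadjusted p under 0.05, against 10.4% of all relations. None passed the adjustment. Their summed normalized counts ranged from 9657 in mouse 5 to 24092 in mouse 4, with mouse 8 next at 20537, and 7 of the 10 genes were at their highest in mouse 4. Hdac9, a deacetylase gene known to fall on denervation, ran the other way between these mice, with 89.9 in mouse 5 and 51.7 in mouse 4. Dach2, also known to fall on denervation, was at its highest in mouse 4 (67.1) and at 34.8 in mouse 5, and Myod1, known to rise, had 82.5 in mouse 4 and 91.7 in mouse 5. Gadd45a, a growth arrest gene induced in atrophying muscle, had 2303 normalized counts in mouse 5 and 10551 in mouse 4. Mouse 4 and mouse 5 were thus also at opposite ends for the summed level of this list, as they were for Chrna1 and Chrnd.

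Myog, the gene of myogenin, had 60.5 to 214 normalized counts. It was highest in mice 4, 8, 6 and 7 (214, 196, 166 and 159) and lowest in mice 2, 3, 5 and 1 (60.5, 78.1, 96.3 and 115). The 4 mice with the most Myog were those with the most Chrna1. Over the 8 mice r was 0.91 (exact permutation p = 0.0044, adjusted 0.281), so the relation did not pass the adjustment. Spearman's rho was 0.88 (p = 0.0072 by the same exact test), and r fell to 0.85 without mice 4 and 8. With the other members that had an E-box upstream and passed the count minimum, the r of Myog was lower. It was 0.46 with Chrnb1, 0.16 with Chrne, -0.11 with Dok7, -0.12 with Musk and -0.23 with Ache. The part of the E-boxes in these relations was not tested. Ncam1, the gene of a cell adhesion molecule found at the junction and along denervated fibres, went with Chrnd (r = 0.87, exact permutation p = 0.0059, adjusted 0.297; rho was 0.83 with p = 0.015 in the same test; r fell to 0.67 without mice 4 and 6). Myf6, the most abundant of the myogenic factor genes here, went with Chrnb1 (r = 0.88, exact permutation p = 0.0050, adjusted 0.289; rho was 0.79 with p = 0.028 in the same test; r fell to 0.68 without mice 5 and 8).

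Of a list of 17 genes, made up of other cholinergic receptor genes and Bche, which encodes butyrylcholinesterase, only Bche and Chrnb2 passed the count minimum. For these genes alone, 5 of 18 relations (27.8%) had an unadjusted p under 0.05, against 10.4% of all relations. None passed the adjustment. Chrna3, Chrna6 and Chrnb4, subunits of ganglionic and brain receptors, were at 0 in every library. Bche had 104 to 184 normalized counts.

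For each member, the genes with the most similar pattern were those with the highest r over the 8 mice among 15134 others, given as a description with no test since they were picked for it. For the subunits they were Dll1 (0.93) and Bri3bp (0.93) with Chrna1, Trim8 (0.97) and Secisbp2 (0.96) with Chrnb1, Vps52 (0.97) and Mageh1 (0.97) with Chrnd, and Snrpn (0.99) and Dnajc19 (0.98) with Chrne. For the organisers they were Slc6a9 (0.98) and Map3k11 (0.96) with Musk, P3h2 (0.99) and Dpysl3 (0.98) with Lrp4, Nudt4 (0.98) and Fam189a2 (0.97) with Dok7, and Ninj1 (0.99) and Utp18 (0.99) with Rapsn. Itgb6 (0.97) and Noct (0.96) were nearest to Ache. None of these genes was another member, and no gene was named for more than 1 member.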

How the data were processed

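Muscle RNA of 8 mice was sequenced as poly-adenylated mRNA libraries. Per the labels and the methods, the authors checked reads with FastQC and fastp, mapped them with STAR to GRCm38.p6, counted them per gene with summarizeOverlaps and normalized them with DESeq2. Annotation release, use of strand and treatment of multi-mapping reads are not given in the sources used here. In the deposited signal, each library's counts had been scaled by a common size factor (0.906 to 1.20): 100% of values were whole multiples of the value of 1 read, within 0.01 read, so counts were recovered. Totals were 23985356 to 33012497 counts per mouse, so counting error weighs most on Chrng.

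Of 55487 Ensembl identifiers, 55227 matched GENCODE M21 (GRCm38), which gave symbols, positions and exonic lengths. Levels are normalized counts per kilobase of all exonic bases. Relations used log2(normalized count + 1), genes that reached 10 counts in all libraries, exact permutations over mice and Benjamini-Hochberg adjustment over all 136206 relations of members with genes. Scripts were tested on simulated data. No difference between conditions was tested. The 28 pairs of libraries all differed by more than sampling noise. The named genes are the 10 members, the 2 most similar genes of each and the genes of the lists (postsynaptic apparatus, neuregulin and ETS, activity-dependent, other cholinergic, and markers of muscle fibres, slow fibres, Schwann cells, neurons, satellite cells and fibroblasts). The values of 1 listed gene are not reported here. The members and lists were chosen with earlier results of these data known. Alternatives were scaling by TMM factors from edgeR or by library totals, a pseudocount of 5, another count minimum, Spearman's rho, GC content and length trends removed, other lengths, medians and leaving out each mouse. The tools were R 4.3.3 with edgeR 4.0.16, and Python 3.11.15 with scipy 1.17.1, numpy 2.4.6, matplotlib 3.10.9 and pandas 2.3.3.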

Additional observations from a re-analysis of the deposited data

Results flagged for a closer look

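For 64 results, the gap between the highest or lowest mouse and the next was compared with the whole range over the 8 mice. A share of 0.526 marks a mouse that stands apart, which chance gives in about 3.2 of 64 results, and 4 results passed it. None was a member of the gene set. Mouse 4 had 4015 normalized counts of Hdac4, a histone deacetylase gene of the response to inactivity, with the next mouse at 2823. Mouse 4 had 1401 of Runx1, a transcription factor gene known to rise after denervation, with the next at 872. Dtna, the gene of alpha-dystrobrevin, had 3934 in mouse 5 and 2836 in the next. Noct, named for its similarity to Ache, had 849 in mouse 7 and 545 in the next.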

How the results depend on the processing

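The mean Chrng share was 1.18% and moved to 2.85% with counts in place of levels per kilobase. It was 1.68% with the longest coding transcript, and leaving out 1 mouse gave 0.990% (without mouse 4) to 1.28%. Neighbouring pairs that passed numbered 7 of 9, 5 with the longest coding transcript and 6 to 7 without 1 mouse. The median CV of the 10 genes was 26.8%, 26.7% with TMM factors, 24.8% with library totals and 20.8% to 28.9% without 1 mouse. Pairs of members past the adjusted threshold numbered 0 in all 14 alternatives. This says nothing of stability, since at least 68 relations at or near the smallest possible p would be needed with 8 mice. Pairs with an unadjusted p under 0.05 numbered 2, and 1 to 6 over the alternatives, the 6 being without mouse 7. Chrng entered the relations with a minimum of 1 count in 1 library, where 3 of 45 pairs had an unadjusted p under 0.05. Ache came before Chrne with the longest coding transcript, Chrna1 before Rapsn without mouse 2, 3 or 5, and Chrnd before Dok7 without mouse 5. The r of Chrnb1 and Lrp4 was -0.52 with library totals. None of the 29 r values recomputed under the alternatives changed sign. This says little of stability, since these pairs were picked for a large r. Other pairs of members did change sign with library totals, such as Lrp4 and Rapsn, from -0.41 to 0.14. No paired analysis was possible because all mice were in 1 group. The depth limits Chrng, at 3 to 11 counts per library.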

Other observations

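Colq, which encodes the collagen tail that anchors acetylcholinesterase in the synaptic cleft, had the widest range of the postsynaptic list, with 2317 normalized counts in mouse 7, 1579 in mouse 8 and 326 to 729 in the other mice. Mouse 7 was also the highest for Ache, but mouse 8 was not, at 308 of Ache. Chrna9, a subunit gene known from hair cells, had 0.917 normalized counts in mouse 5 and 137 in mouse 4, with the other mice at 13.0 to 62.3, so the extremes were the mice at the extremes of Chrnd. Chrna2 was at 7.34 to 32.9. Slow fibre markers (Myh7, Tnnt1, Myl2 and Tnni1) summed to 6058 to 14586 normalized counts, lowest in mouse 3 and highest in mouse 1. Satellite cell markers summed to 856 to 1287, with 3 of 4 genes above the count minimum.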
